A study of Danio rerio with 6 samples.

Results

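The mitochondrial genome was represented in the deposited zebrafish heart data by 37 genes of 29978 listed. They were chosen by symbol, as every gene whose name starts with AC024175. (24 genes, called RNA genes here because the protein genes carry another prefix) or with mt- (13 protein genes). RNA was sequenced from pools of dissected embryonic hearts at 48 and 56 h post fertilization (hpf), with 3 pools at each stage. GEO's labels give the line of both stages as AB, the study's methods name Tg(myl7:EGFP) embryos, in which a myocardial promoter drives EGFP, and neither names a treatment that separates the stages. Per the methods, all animals of the study received PTU (phenylthiourea) against pigment. The labels describe cDNA amplified from total RNA with random and poly-T primers, whereas the methods describe mRNA taken up on oligo-dT beads, and the files do not settle which was used for these libraries. Each pool mixed the hearts of many embryos, and nothing states that the pools came from separate crosses, so that p-values measure the spread between these pools. The comparison asked how the expression profile of the heart differed between these early stages of valve formation.

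Mitochondrial DNA is a small circular genome that encodes the ribosomal and transfer RNAs of the organelle and a set of core subunits of the respiratory chain, while all other mitochondrial proteins are encoded in the nucleus. In vertebrates both strands are transcribed as long precursor RNAs that span many genes, and the tRNAs that lie between most of the genes mark where the precursor is cut. The heart is among the tissues richest in mitochondria. In the RefSeq gene table used here for names and gene order (another assembly than that of the files), the zebrafish mitochondrial genome holds 37 genes, 13 for proteins, 2 for rRNAs and 22 for tRNAs. All 13 mt- genes matched it by name. None of the 24 AC024175. genes is given a description or a match in the tables used, so they are reported by symbol alone and none is called an rRNA or a tRNA.

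The libraries held 14369087 to 26942838 reads on genes. A share of counts therefore carried little counting error, the widest 95% Wilson interval reaching 0.0205 percentage points to each side, and intervals of this kind cover counting error only. Of 12 listed myocardial markers 10 were found and 9 were above 3 reads in every pool. They summed to 2.14, 4.44 and 5.45% of counts at 48 hpf and to 2.32, 1.88 and 1.80% at 56 hpf, with overlap between the stages (means 4.01 and 2.00%, exact permutation p = 0.2, n = 3). Transcripts of blood markers summed to 0.234 to 0.345% of counts at 48 hpf and to 0.0421 to 0.118% at 56 hpf. Those of epidermal markers summed to 0.764 to 2.07% and 2.19 to 3.49%. Neither list overlapped between stages (exact permutation p = 0.1 for each, n = 3, the smallest p this design allows). Of all single genes tested, 24.3% did not overlap in normalized counts. In 56 hpf replicates 2 and 3 the epidermal sum, at 3.49 and 3.39%, was above the myocardial sum. The sums of the other tissues' lists overlapped. The mean sum of cartilage markers was lower at 56 hpf, at 0.0758 against 0.0847% (exact permutation p = 0.6). That of skeletal muscle markers was higher, at 0.162 against 0.119% (exact permutation p = 0.3). Markers of liver and yolk were also higher, at 0.313 against 0.0898% (exact permutation p = 0.2). Where the limma test called 1.08% of all genes tested, it called 13 of 19 skeletal muscle markers and 5 of 13 cartilage markers found higher at 56 hpf, 1 of 13 epidermal markers higher, and 6 of 12 blood markers lower. The lists were chosen with earlier results of these data known, so these counts are a description and not independent support. In bulk RNA, fewer cells of a type and less RNA per cell cannot be told apart, and the part of these other tissues in the mitochondrial results was not tested.

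A pair of pools stood apart in several ratios between mitochondrial genes, 1 from each stage. AC024175.17 yielded 0.273, 0.257 and 0.154 reads per read of AC024175.4 at 48 hpf (replicates 1, 2 and 3 in this order throughout) and 0.143, 0.271 and 0.277 at 56 hpf. The low values were those of 48 hpf replicate 3 and 56 hpf replicate 1. The same pools held the fewest transcripts of mt-co2 and mt-co3, subunits 2 and 3 of cytochrome c oxidase (complex IV), relative to mt-nd4, a subunit of NADH dehydrogenase (complex I). The mt-co2 to mt-nd4 ratio was 0.914, 1.56 and 0.634 at 48 hpf against 0.429, 1.30 and 1.25 at 56 hpf. For mt-co3 the ratio was 1.37, 2.35 and 0.988 against 0.928, 2.18 and 2.01. On the map mt-atp8 and mt-atp6, the mitochondrial subunits of ATP synthase (complex V), lie between mt-co2 and mt-co3, yet their shares of the protein-gene reads were highest within each stage in these very pools, at 1.28 and 4.35% in 48 hpf replicate 3 and at 2.04 and 5.42% in 56 hpf replicate 1. Neighbours on the map thus differed in opposite directions between pools. Over all 13 protein genes the pair was less distinct. The median absolute log2 difference in share of the protein-gene reads was 0.363 within the pair. From 48 hpf replicate 3 it was 0.289 and 0.488 to 48 hpf replicates 1 and 2, and 0.297 and 0.346 to 56 hpf replicates 2 and 3. From 56 hpf replicate 1 to those same pools it ran from 0.497 to 0.851. The main differences below are also given without 48 hpf replicate 3 and 56 hpf replicate 1 where that moved them.

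**Figure D1:**
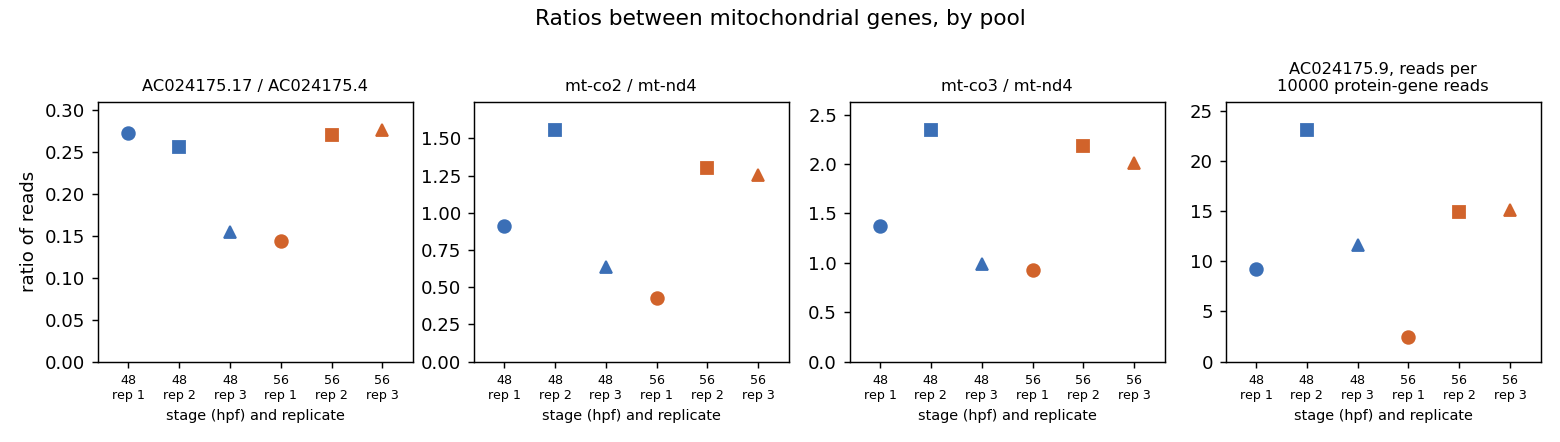
Read ratios between mitochondrial genes in the 6 pools (blue, 48 hpf; orange, 56 hpf; circle, square and triangle for replicates 1, 2 and 3). The vertical axes are reads per read of the second gene, or reads of AC024175.9 per 10000 reads on the protein genes. In the first 3 panels 48 hpf replicate 3 and 56 hpf replicate 1 lie below the other 4 pools, and in the last the 2.48 of 56 hpf replicate 1 is the lowest value.

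Mitochondrial transcripts took a large part of the heart's counts at both stages. Their summed share was 19.4, 14.3 and 19.6% at 48 hpf and 23.7, 18.8 and 15.4% at 56 hpf, with overlap between them. Means were 17.8 ± 2.99% and 19.3 ± 4.21% (SD, n = 3), and an exact permutation test (two-sided, in which 3 against 3 pools cannot go below p = 0.1) gave p = 0.6 for the difference of 1.54 percentage points. Without both pools that stood apart the difference was 0.215 percentage points. The lowest and the highest share differed more within the 56 hpf pools than the stage means did.

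Most of this signal lay on RNA genes. They took 17.5, 12.2 and 16.4% of all counts at 48 hpf and 20.5, 15.8 and 13.0% at 56 hpf (15.3 ± 2.77% against 16.4 ± 3.80%, difference 1.08, exact permutation p = 0.8), and the difference was -0.453 without both pools. The protein genes took 1.94, 2.09 and 3.20% at 48 hpf and 3.24, 2.96 and 2.41% at 56 hpf. Their means, 2.41 ± 0.688% and 2.87 ± 0.424% (n = 3 each), differed by 0.459 percentage points (exact permutation p = 0.3), and by 0.668 without both pools. With a single pool left out the difference ran from 0.225 (without 48 hpf replicate 1) to 0.854 (without 48 hpf replicate 3). Within the mitochondrial reads the RNA genes held 86.3 ± 3.28% at 48 hpf and 85.0 ± 1.19% at 56 hpf, with exact permutation p = 0.7 over 3 pools a stage. The difference of -1.37 percentage points was -3.41 without both pools. The highest of these 6 shares was the 90.0% of 48 hpf replicate 1.

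**Figure D2:**
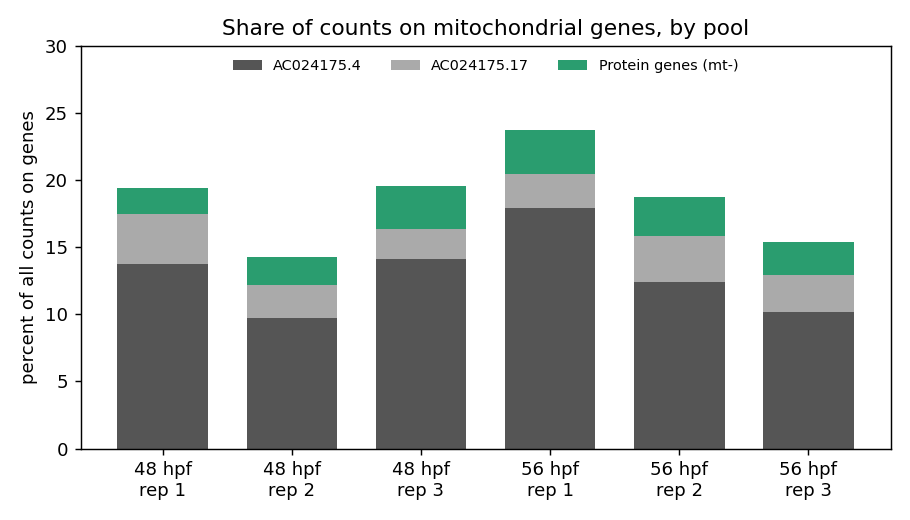
Percent of all counts on genes taken by AC024175.4 (dark grey), AC024175.17 (light grey) and the 13 protein genes together (green), stacked for each of the 6 pools. The other 22 RNA genes are left out, since together they held at most 0.0112% of counts in any pool. The column tops run from 14.3 to 23.7% and the stages overlap.

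A pair of RNA genes carried the RNA signal. AC024175.4 (ENSDARG00000080337) ranked 1 of all 29978 genes by its mean share of counts, at 13.7, 9.71 and 14.2% at 48 hpf and 17.9, 12.4 and 10.1% at 56 hpf. AC024175.17 (ENSDARG00000082753) ranked 3, at 3.74, 2.49 and 2.18% and then 2.57, 3.37 and 2.81%. Together they made up 83.6 to 89.9% of the mitochondrial reads of a pool. These are shares of reads that were not divided by transcript length, since no lengths of the build used were at hand, and they do not rank the genes by number of molecules.

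The other 22 RNA genes had few reads. Together they yielded 1203 to 2580 reads in a pool, which was 0.0384 to 0.0669% of its mitochondrial reads. AC024175.23 (496 to 817 reads a pool) and AC024175.9 (158 to 1301) were the most abundant, and AC024175.22 never exceeded 1 read, below the floor of 3 reads under which a gene was taken as not detected. The highest pool of AC024175.7, AC024175.8, AC024175.11, AC024175.15 and AC024175.16 held 4 to 9 reads. The remaining 14 (AC024175.1, AC024175.2, AC024175.3, AC024175.5, AC024175.6, AC024175.10, AC024175.12, AC024175.13, AC024175.14, AC024175.18, AC024175.19, AC024175.20, AC024175.21 and AC024175.24) reached between 13 reads (AC024175.5) and 187 reads (AC024175.19) in their highest pool. AC024175.9 varied widely in relation to the protein genes, with 9.20, 23.1 and 11.7 reads per 10000 protein-gene reads at 48 hpf and 2.48, 14.9 and 15.1 at 56 hpf. AC024175.23 was steadier, at 20.1, 10.5 and 10.4 and then 12.8, 11.4 and 9.60, with its highest value in 48 hpf replicate 1. AC024175.13 followed the split of the pools described above, with 0.537, 0.533 and 0.0836 reads per 10000 against 0.252, 0.764 and 0.800, though its counts ran only from 4 to 50 reads. Also lowest within each stage in those pools were AC024175.1 and AC024175.18, again on few reads. By contrast AC024175.6, AC024175.10 and AC024175.12, among others, were highest within each stage there. The study's methods keep only reads that aligned to a single place, and how reads shared with nuclear copies of mitochondrial DNA were treated in these files was not tested.

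Among the protein genes, mt-co1, the catalytic subunit of cytochrome c oxidase, was the most abundant in every pool and ranked 6 of all genes. Its normalized count (reads divided by a size factor that scales the 6 libraries to each other) was 140175, 159996 and 258010 at 48 hpf and 203507, 200939 and 153498 at 56 hpf. These values overlapped. In contrast, its part of the protein-gene reads was 37.8, 40.0 and 42.5% at 48 hpf and 31.6, 31.1 and 30.0% at 56 hpf, so that every 56 hpf pool lay below every 48 hpf pool. The means were 40.1 ± 2.37% and 30.9 ± 0.824%, a difference of -9.20 percentage points (exact permutation p = 0.1, n = 3, the smallest p this design allows). The difference was -8.35 without both pools that stood apart and between -10.4 and -7.99 with any single pool left out. It was seen in a screen of all 13 protein genes and does not pass a threshold of 0.05.

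The mt-nd1 share, that of a core complex I subunit, was the other that did not overlap, at 5.15, 3.48 and 4.21% against 7.64, 5.18 and 5.36% (difference 1.78, exact permutation p = 0.1, n = 3), and 48 hpf replicate 1 was just below 56 hpf replicate 2. The difference was 0.987 without 56 hpf replicate 1 and 0.953 without both pools that stood apart. Shares that did not overlap between stages were thus found for 2 of 13 protein genes, where 25.5% of all genes tested did not overlap when counted per read on the mitochondrial protein genes, so the number is no higher than the background. The other 11 genes overlapped. The shares of mt-co2 were 8.90, 11.0 and 5.87% and then 4.26, 11.4 and 11.8%. For mt-co3 they were 13.4, 16.6 and 9.15% and then 9.21, 19.1 and 18.9%. Apocytochrome b of complex III, encoded by mt-cyb, held 9.88, 9.26 and 10.2% and then 13.1, 9.21 and 9.30%, in which 56 hpf replicate 1 alone lay above the rest. The least abundant transcript was mt-nd3, a small complex I subunit, at 0.123 to 0.221%.

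**Figure D3:**
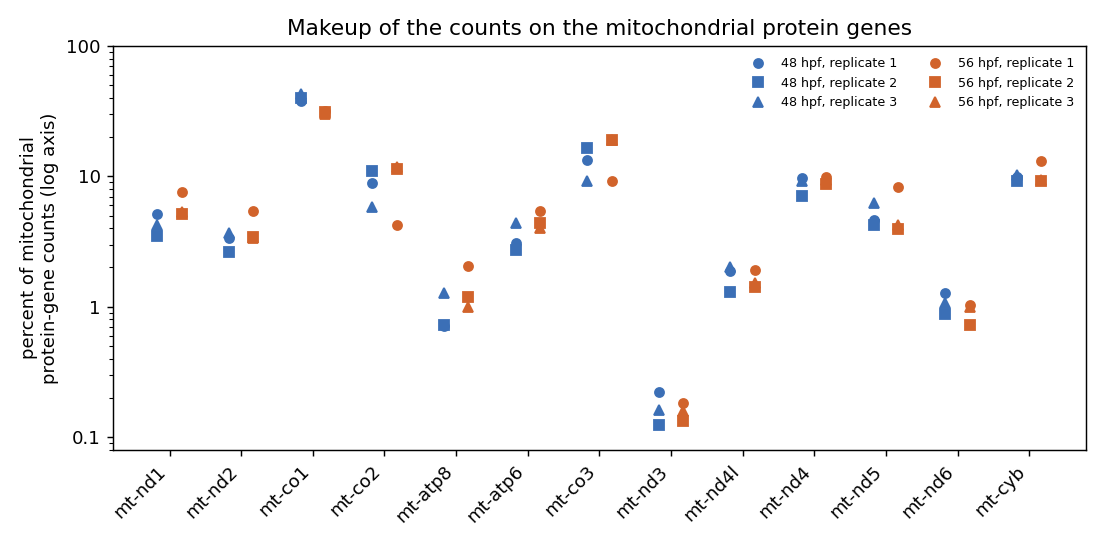
Percent of the protein-gene reads taken by each of the 13 protein genes, in map order, on a log axis (blue, 48 hpf; orange, 56 hpf; 1 symbol per replicate). For mt-co1 the 56 hpf points (30.0 to 31.6%) lie below the 48 hpf points (37.8 to 42.5%), and for mt-co2 and mt-co3 the spread between pools of a stage is wider than the difference between stages.

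Reads of each protein gene were next set against mt-co1 within the same pool, a ratio that does not depend on how the libraries are scaled. All 12 other protein genes had a higher mean ratio at 56 hpf, and 6 of them did not overlap between stages (mt-atp6, mt-atp8, mt-cyb, mt-nd1, mt-nd2 and mt-nd4; exact permutation p = 0.1 each, n = 3). Of all genes tested, 13.4% did not overlap in their ratio to mt-co1. The 12 ratios share the divisor, so any difference in mt-co1 moves them all and they do not count as 12 observations. Since the mt-co1 part of the protein-gene reads was lower in every 56 hpf pool, ratios that are higher in general restate that difference. The 13.4% was drawn with the same divisor. The 6 genes share a genome and a library, so their count is not taken as a separate result. Normalized counts of mt-co1 itself ran from 140175 to 258010 at 48 hpf and from 153498 to 203507 at 56 hpf. Their means were 186060 and 185981 (limma log2 fold change 0.04, SE 0.63). In limma none of the 13 protein genes was called between stages. Which side of the ratio differed was not tested beyond that. The mt-nd1 ratio was 0.136, 0.0870 and 0.0991 at 48 hpf and 0.242, 0.167 and 0.178 at 56 hpf, 1.82 times the 48 hpf mean. The mt-atp6 ratio was 0.0814, 0.0676 and 0.102 against 0.171, 0.141 and 0.135, and that of mt-atp8, which encodes the smaller ATP synthase subunit, had the largest ratio of stage means at 2.03. For mt-cyb the values were 0.261, 0.232 and 0.240 against 0.415, 0.296 and 0.310. For mt-nd4 they were 0.258, 0.177 and 0.218 against 0.314, 0.282 and 0.313. The genes that overlapped were mt-co2, mt-co3, mt-nd3, mt-nd4l, mt-nd5 and mt-nd6.

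**Figure D4:**
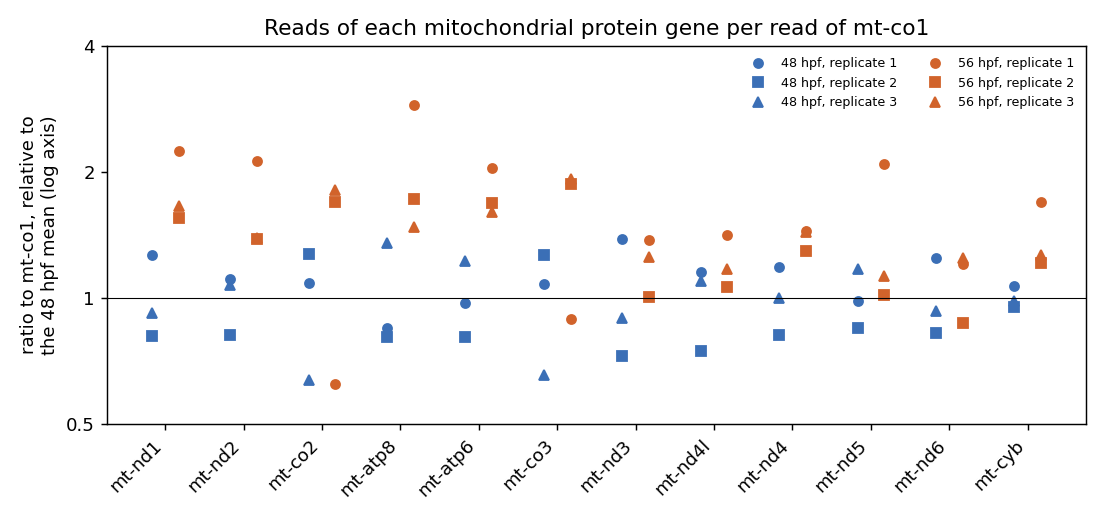
Reads of each protein gene per read of mt-co1, divided by the gene's mean ratio at 48 hpf and drawn on a log axis, for the 6 pools (blue, 48 hpf; orange, 56 hpf; 1 symbol per replicate). The orange points of 6 of the 12 genes all lie above the blue points, and the largest ratio of means, that of mt-atp8, is 2.03.

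Grouped by complex, the makeup did not differ beyond the spread between pools. The 7 complex I genes took 26.3, 19.7 and 26.6% of the protein-gene reads at 48 hpf and 34.3, 23.6 and 25.0% at 56 hpf (difference 3.45 percentage points, exact permutation p = 0.6), and the difference was 1.33 without both pools that stood apart and 0.117 without 56 hpf replicate 1. The 3 complex IV genes took 60.1, 67.6 and 57.5% and then 45.1, 61.6 and 60.7% (difference -5.96, exact permutation p = 0.6). This difference was -2.71 without both pools, -0.614 without 56 hpf replicate 1 and -0.068 with mt-co1 left out. Within complex IV the lower share of mt-co1 at 56 hpf stood beside mt-co2 and mt-co3 shares whose means were higher by 0.545 and 2.70 percentage points. Complex V was at 3.79, 3.42 and 5.64% and then 7.46, 5.58 and 5.03% (difference 1.74, exact permutation p = 0.3), and complex III, mt-cyb alone, differed by 0.766 (exact permutation p = 0.9). After Benjamini-Hochberg adjustment over the 4 complexes these exact permutation p-values were 0.8 to 0.9. The order of the 13 protein genes by reads was similar in all pools, with Spearman's rho between 0.830 and 0.989 over the 15 pairs of pools, given as a description across genes that share their libraries.

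Genes that lie next to each other on the map kept their ratio to a varying degree. The mt-nd4l and mt-nd4 genes, complex I subunits encoded on 1 bicistronic transcript in vertebrates, were in a ratio of 0.162 to 0.218 over the 6 pools. The mt-atp8 to mt-atp6 ratio, likewise from a shared transcript, ran from 0.232 to 0.376. The mt-nd5 and mt-nd4 genes are separated by tRNA genes on the map, and their ratio was 0.476, 0.596 and 0.672 at 48 hpf and 0.828, 0.449 and 0.449 at 56 hpf, highest within each stage in the pools that stood apart. Only mt-nd6 of the protein genes is transcribed from the other strand in vertebrates. It gave 0.130, 0.125 and 0.115 reads per read of mt-nd4 at 48 hpf and 0.103, 0.0829 and 0.107 at 56 hpf, so that the 56 hpf values all lay below (exact permutation p = 0.1, n = 3, a ratio picked out after the values were seen). Its ratios to mt-nd5 and to mt-cyb overlapped between stages (exact permutation p = 0.5 and 0.3, n = 3), and its mean ratio to mt-co1 was higher at 56 hpf, at 0.0297 against 0.0269. The share of all genes without overlap in their ratio to mt-nd4 was not computed. The mt-co2 to mt-co3 ratio did not overlap either, at 0.665, 0.664 and 0.641 against 0.462, 0.596 and 0.623 (exact permutation p = 0.1, n = 3). The counting is not stated to use strand, and without it reads from mt-nd6 and from a precursor of the opposite strand across it cannot be told apart. Reads in the overlap of mt-atp8 with mt-atp6 or of mt-nd4l with mt-nd4 are likewise uncertain.

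The test over all genes called no mitochondrial gene between the stages. It compared log2(normalized count + 1) with limma, with the replicate number as a block, and 31 of the 37 genes had enough reads to enter it (all 13 protein genes and 18 RNA genes). None had a Benjamini-Hochberg adjusted p below 0.05 in limma, 1 had an unadjusted p below 0.05, and edgeR's quasi-likelihood test and DESeq2 called none either. The same fit called 1.08% of all genes tested, 225 of 20805 (181 higher and 44 lower at 56 hpf). Of these 20805 genes, 3849 had an unadjusted p below 0.05 in limma. With the block, edgeR called 156 of 20805 genes and DESeq2 1501 of 19594. Log2 fold changes of 56 against 48 hpf were above 0 for 26 of the 31 genes and for all 13 protein genes, of which mt-co1 turned to -0.070 when libraries were scaled by the reads on other genes. Their median was 0.50 for the protein genes and 0.22 for the RNA genes, beside -0.01 for all genes tested. Since the genes of a pool share 1 genome, library and scale, their common direction is not 13 observations.

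The mt-nd1 transcript, with normalized counts of 19092, 13920 and 25560 at 48 hpf and 49175, 33476 and 27399 at 56 hpf, was the only 1 of 31 genes tested whose stages did not overlap, against 24.3% of all genes tested. Its log2 fold change was 0.91 (SE 0.36, limma adjusted p = 0.246), and its adjusted p over all alternatives, limma, edgeR and DESeq2, ran from 0.05004 (DESeq2) to 0.926. The estimate for mt-atp8 was 1.04 (SE 0.51, limma adjusted p = 0.333) and that for mt-atp6 0.88 (SE 0.43, limma adjusted p = 0.328). Without both pools that stood apart, and with no block, limma called mt-atp8 (1.17, SE 0.24, adjusted p = 0.0342) and mt-atp6 (1.11, SE 0.22, adjusted p = 0.0340), in a fit that called 1297 of 20270 genes. That set of pools was chosen after the values had been seen. Normalized counts of mt-atp6 were 11412, 10815 and 26411 and then 34868, 28351 and 20655, and the high 48 hpf value was that of replicate 3, 1 of the pools left out. Those of mt-atp8 were 2646, 2875 and 7783 and then 13119, 7733 and 5067. The stages overlapped, and the high 48 hpf value was again that of replicate 3.

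None of the remaining abundant genes was called. Normalized counts of mt-co3 were 49583, 66527 and 55521 at 48 hpf and 59293, 123682 and 96635 at 56 hpf (log2 fold change 0.65, SE 0.42). Those of mt-co2 were 32993, 44153 and 35589 and then 27390, 73725 and 60217 (0.41, SE 0.38, and 0.79 without both pools that stood apart). The pools of 56 hpf replicates 2 and 3 were high for both, and that of replicate 1 was not. Those of mt-cyb were 36629, 37068 and 61910 and then 84474, 59570 and 47588 (0.50, SE 0.44). For mt-nd4 they were 36112, 28322 and 56175 and then 63885, 56653 and 48033 (0.53, SE 0.40), and for mt-nd5, another complex I subunit, 17175, 16882 and 37741 and then 52889, 25444 and 21560 (0.47, SE 0.48). Here 48 hpf replicate 3 was the highest of its stage and 56 hpf replicate 1 the highest of all. The values of mt-co1 gave a log2 fold change of 0.04 (SE 0.63), and of 0.22 without both pools. These SEs come from limma with a trend, in which the spread assigned to a gene depends on its abundance. Without the trend the SE was 0.35 for mt-co1, 0.26 for mt-co3 and 0.32 for mt-co2. It was 0.38 for mt-cyb, 0.34 for mt-nd4 and, higher than with the trend, 0.52 for mt-nd5.

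For AC024175.4 the normalized counts were 2617570, 1861330 and 2682740 and then 3555310, 2718010 and 2154130, and the log2 fold change was 0.22 (0.12 without both pools that stood apart). Its SE was 2.05 with the spread that limma's trend assigns to the most abundant genes and 0.29 without the trend, and its adjusted p in limma was 0.968 and 0.725. AC024175.17, at 713343, 477987 and 413883 and then 509969, 736530 and 596659, also had a log2 fold change of 0.22 (SE 1.00 with the trend and 0.32 without). The stages of both genes overlapped. Among the RNA genes with few reads the log2 fold changes ran from -0.30 (AC024175.9) to 1.23 (AC024175.13, SE 0.68, limma adjusted p = 0.380). Without both pools that stood apart the value of AC024175.9 was 0.61 (SE 0.43), the opposite direction, and AC024175.10 and AC024175.14 also changed sign, from -0.06 to 0.16 and from 0.08 to -0.04. The 6 genes left out by the filter were AC024175.7, AC024175.8, AC024175.11, AC024175.15, AC024175.16 and AC024175.22, with at most 9 reads in any pool.

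**Figure D5:**
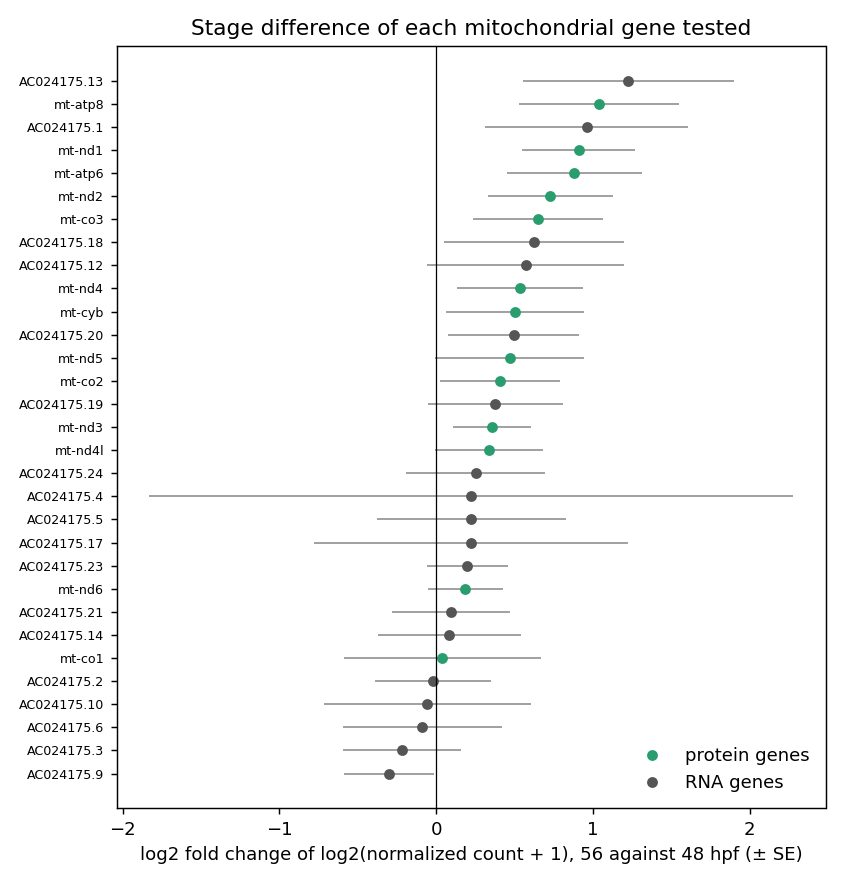
Log2 fold change of log2(normalized count + 1), 56 against 48 hpf, for the 31 mitochondrial genes tested (points; bars are the SE of the limma fit; green, protein genes; grey, RNA genes), sorted by size. All 13 green points lie above 0, the lowest of them that of mt-co1 at 0.039. None of the 31 genes was called, and the wide bars of AC024175.4 and AC024175.17 are 2.05 and 1.00.

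The nuclear genes that read and maintain the mitochondrial genome were followed with 4 lists. Of 144 listed genes found, 140 were tested and none was called in either direction (4 had an unadjusted p below 0.05 in limma, and edgeR and DESeq2 called none). Over all genes, the limma fit called 1.08%, and 3849 of 20805 had an unadjusted p below 0.05. With the block, edgeR called 156 of 20805 and DESeq2 1501 of 19594. Normalized counts of 15 of the 140 listed genes, or 10.7%, did not overlap between stages, where the share over all genes tested was 24.3%. For replication, transcription and RNA processing (47 tested) the median log2 fold change was -0.05. POLRMT, the mitochondrial RNA polymerase, was at 431, 289 and 335 normalized counts against 245, 298 and 259 (log2 fold change -0.38, SE 0.25, limma adjusted p = 0.451). For tfam, which packages mitochondrial DNA and starts its transcription, the counts were 498, 650.0 and 643 against 545, 533 and 493 (-0.18, SE 0.21). For lrpprc, a binding protein that stabilizes mitochondrial mRNAs in mammals, the log2 fold change was -0.03 (SE 0.18), and for ppargc1a, a coactivator of mitochondrial biogenesis, -0.02 (SE 0.25). The stages overlapped for these 4 genes. The ends of this list, MTERF at -1.59 (SE 0.71) and FTSJ2 at 1.38 (SE 0.69), rested on fewer than 20 normalized counts in each pool.

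In the list of translation factors (11 tested, median -0.15) the lowest value was that of mrrf, the factor that recycles mitochondrial ribosomes, with 198, 204 and 167 normalized counts at 48 hpf and 104, 105 and 91.0 at 56 hpf. These did not overlap, and the log2 fold change of -0.92 (SE 0.26) had a limma adjusted p of 0.136. The highest was that of mtif3, an initiation factor, at 0.34 (SE 0.28). In the mitochondrial ribosome (66 tested, median -0.01) values ran from mrps28 at -0.89 (SE 0.56), for which the low pool was 56 hpf replicate 1 with 15.2 normalized counts, to mrpl43 at 0.67 (SE 0.23, limma adjusted p = 0.189). The latter was at 235, 233 and 335 against 431, 410.2 and 419, without overlap. Among the mitochondrial tRNA synthetases (16 tested, median 0.08) the ends were vars2 at -0.53 (SE 0.28) and fars2 at 0.52 (SE 0.49), and no member passed even unadjusted.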

How the data were processed

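Gene expression was measured by RNA-seq in 6 pools of zebrafish hearts. Per the study's methods the authors aligned reads to Zv9 with Tophat, kept uniquely aligned reads and counted them with HTSeq on Ensembl genes, while the submitters' processing notes name CASAVA 1.8.2, Bowtie2 2.1.0, HTSeq 0.5.4p3 and DESeq 1.10.1. The deposited values are a signal in which each gene's read count was divided by the size factor of its library, and the files hold no columns of fold changes or p-values. Every value was a whole multiple of 1 read (100% of values within 0.01 of a whole number), so reads were recovered. A floor of 3 reads equals 2.13 to 3.98 normalized counts. Shares were computed on the recovered reads, which gives the same percentages as on the deposited values.

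For tests across genes, reads were divided by median-of-ratios size factors of the 6 libraries (0.753 to 1.41). Genes were kept by filterByExpr (edgeR 4.0.16, minimum count 10, minimum total 15), and log2(normalized count + 1), a scale that understates changes of low genes, was fitted with limma 3.58.1 in R 4.3.3 with a trend and the replicate number as a block, since the study's methods adjust for differences between experiments. The labels do not say that same-numbered pools came from the same experiment, and the tags in the sample titles differ between them. Genes were called at a Benjamini-Hochberg adjusted p under 0.05 over all genes tested. Shares and ratios were compared with two-sided exact permutation tests. On the deposited scale the median change over all genes tested shifted from -0.01 to 0.11 (log2). The scripts were tested on simulated data.

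Members and lists were chosen with earlier results of these data known. By rule every mitochondrial gene above 3 reads was accounted for, those above 1% of mitochondrial counts were given in each pool, and genes named beside them were the ends of each nuclear list and POLRMT, tfam, lrpprc and ppargc1a. Alternatives covered the block, scaling (TMM, without the mitochondrial genes, deposited, per other reads), pseudocounts 0.5 and 10, filters, edgeR's quasi-likelihood test and DESeq2 1.42.0 on reads, and leaving out pools.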

Additional observations from a re-analysis of the deposited data

How the results depend on the processing

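The count of called mitochondrial genes was 0 to 1 with replicates left out in turn and 2 without 48 hpf replicate 3 and 56 hpf replicate 1, an alternative chosen after seeing the data, and it was 0 under the other 13 alternatives, which kept all pools and changed the block, scale, pseudocount, filter, tool or prior variance. The last, limma with no trend, was also added after seeing the data and called 0 genes of any kind. The 1 gene called was mt-atp8 without replicate 3 (log2 fold change 1.86, limma adjusted p = 0.00607), in a fit that called 643 of 20197 genes. That fit had 2 pools a stage. It left out the highest 48 hpf and the lowest 56 hpf value of mt-atp8 (7783 and 5067 normalized counts). The nuclear lists gave 0 calls in all alternatives. The log2 fold change of mt-co1 turned to -0.070 when libraries were scaled by the reads on the other genes and to -0.0042 in edgeR's quasi-likelihood test with no replicate block, and ran from -0.21 to 0.43 with replicates left out. That of mt-nd5 ran from -0.11 to 1.1. With 1 pool left out the differences in percentage points were -0.684 to 3.50 for all mitochondrial genes, -0.957 to 2.81 for RNA genes, 0.225 to 0.854 for protein genes, -2.72 to 0.456 for the RNA part of mitochondrial counts, 0.117 to 5.47 for complex I, -0.524 to 1.43 for complex III, -8.87 to -0.614 for complex IV and 1.02 to 2.42 for complex V. Without both pools the RNA genes gave -0.453 and complex III -0.312. Without mt-co1, complex I gave -0.390 and complex III -1.07. The cause of these turns was not tested.

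Over all genes the count of calls was 225, against 558 with no replicate block, 346 with no filter, 135 with at least 10 counts in every library, 156 with edgeR and the block, 552 with edgeR without it, 1501 with DESeq2, 0 with no trend in the prior variance (3315 at an unadjusted p under 0.05) and 7 to 2076 with replicates left out. Same-numbered pools of the stages correlated in their deviations at 0.03, 0.19 and -0.05, so the numbers are not shown to pair the pools. The replicate block leaves each difference of shares as it is (0.459 percentage points for the protein genes). A threshold of 0.05 cannot be reached by shares over 3 pools a stage.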
